A study of Drosophila melanogaster with 3 samples.

Results

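In all, 10 genes of Drosophila meiosis were followed in a chromatin immunoprecipitation and sequencing (ChIP-seq) experiment on Grauzone, a DNA-binding zinc finger protein that switches on cortex and is needed for the egg to finish meiosis. The genes were taken by name from the Ensembl annotation of the fly genome, 10 of 13968 protein-coding genes on the chromosome arms, and all 10 names were found. They are c(3)G, c(2)M, ord, mei-W68, mei-P22, mei-9, mei-218, nod, ncd and sub. Every listed point source (the most enriched base of a peak) in the body of each gene or within 5 kb of it was taken, which gave 22 of the 9624 in the list that the submitters thresholded for reproducibility (called reproducible below), 35 of the 30000 pooled ones, and 39, 39 and 37 of the 30000 in replicates 1, 2 and 3. All samples were 1 group of whole Drosophila melanogaster embryos, males and females pooled, collected at 0 to 24 hours, from 1 transgenic line stably expressing grau with GFP at its C-terminal end. Chromatin was precipitated with an antibody against GFP, and fragments of 200 to 800 bp were sequenced in 3 biological replicates. No untreated or mock list was analysed here, so no value below has a background measured in the same way beside it. With 1 group, no condition is compared and no p-value is given. The values are ranks and levels at these genes, set beside the same counts over all protein-coding genes.

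In meiosis, homologous chromosomes pair along the synaptonemal complex, programmed DNA breaks are repaired in part as crossovers, and spindle motors then pull the homologs apart. In Drosophila females pairing and recombination take place in the ovary, the homologs separate once the egg is activated, and the chromosomes that made no crossover depend on a backup system of motor proteins. The collection spans 0 to 24 hours, and whether every embryo was past these divisions was not checked. Transcripts were not measured, so the labelled tissue could not be checked against marker genes.

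The sequences at the 4 reproducible point sources near member starts, and at the strongest point source of any window, are printed because they are the DNA on which the main result rests. They are the plus strand of dm6, 5′ to 3′, from the RefSeq copy of the same assembly. Each is a window reaching 50 bp to either side of the point source, shortened where the annotation has an untranslated region. Capitals mark the only match found here to any of 7 searched promoter motifs, TATAAA. Between c(3)G and Acyp2 the window printed is chr3R:15792580-15792679, with the point source at base 50. Between GMF and c(2)M it is chr2L:16303028-16303128, with the point source at base 51. Between mRpL50 and mei-P22 it is chr3L:7243980-7244080, upstream of nod it is chrX:11580461-11580561, and at CG17328, 3089 bp upstream of c(2)M, it is chr2L:16300125-16300213. The last of these has the highest signal of the 22, and the window upstream of nod the highest of the 4 at member starts.
c(3)G: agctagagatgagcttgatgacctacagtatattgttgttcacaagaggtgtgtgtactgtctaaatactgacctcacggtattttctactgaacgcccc
c(2)M: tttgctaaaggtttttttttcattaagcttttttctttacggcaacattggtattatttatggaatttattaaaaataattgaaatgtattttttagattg
mei-P22: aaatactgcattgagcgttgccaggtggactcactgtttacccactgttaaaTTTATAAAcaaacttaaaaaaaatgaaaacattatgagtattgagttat
nod: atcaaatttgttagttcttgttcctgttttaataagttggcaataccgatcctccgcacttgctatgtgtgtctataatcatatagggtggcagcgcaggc
CG17328: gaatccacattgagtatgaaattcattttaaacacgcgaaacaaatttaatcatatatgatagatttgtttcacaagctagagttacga

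At the starts themselves, 4 of the 10 genes had a reproducible point source within 500 bp, namely c(3)G, c(2)M, mei-P22 and nod. Of all protein-coding genes, 32.0% had one, so the share of these meiotic genes was near that of genes at large. All 4 point sources lay upstream of the start, from 50 bp at c(3)G to 358 bp at mei-P22, and all 4 lay between annotated genes. Their ranks by signal in the reproducible list were 3780 for nod, 5438 for c(2)M, 6056 for mei-P22 and 6602 for c(3)G, where rank 1 is the strongest. The median of these ranks was 5747, against 3916.5 for the 4476 protein-coding genes with such a point source. The pooled list added mei-W68 and mei-218, at ranks 10738 and 11077, below the last reproducible rank of 9624. That made 6 of 10, where 47.8% of all protein-coding genes had a pooled point source at a start, and 15.8% had a pooled one without a reproducible one. In the replicates the counts were 7 of 10 in replicate 1, 5 in replicate 2 and 6 in replicate 3, beside shares of all genes of 50.7%, 51.5% and 47.4%. The genes with a point source at a start in every replicate were c(3)G, c(2)M, mei-W68, mei-P22 and nod, 5 of 10, against 39.5% of all protein-coding genes. Within the 9624 strongest peaks of each replicate, 6, 4 and 4 members had a point source at a start in replicates 1, 2 and 3, where the shares of all genes were 34.1%, 33.2% and 30.7%. In all 3 of these shortened lists it was 4 members, against 24.5% of genes. No member was among the 34 genes, or 0.243%, held in all 3 of these and missing from the pooled list. None of these counts says that Grauzone was found at meiotic genes more or less often than elsewhere.

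**Figure D1:**
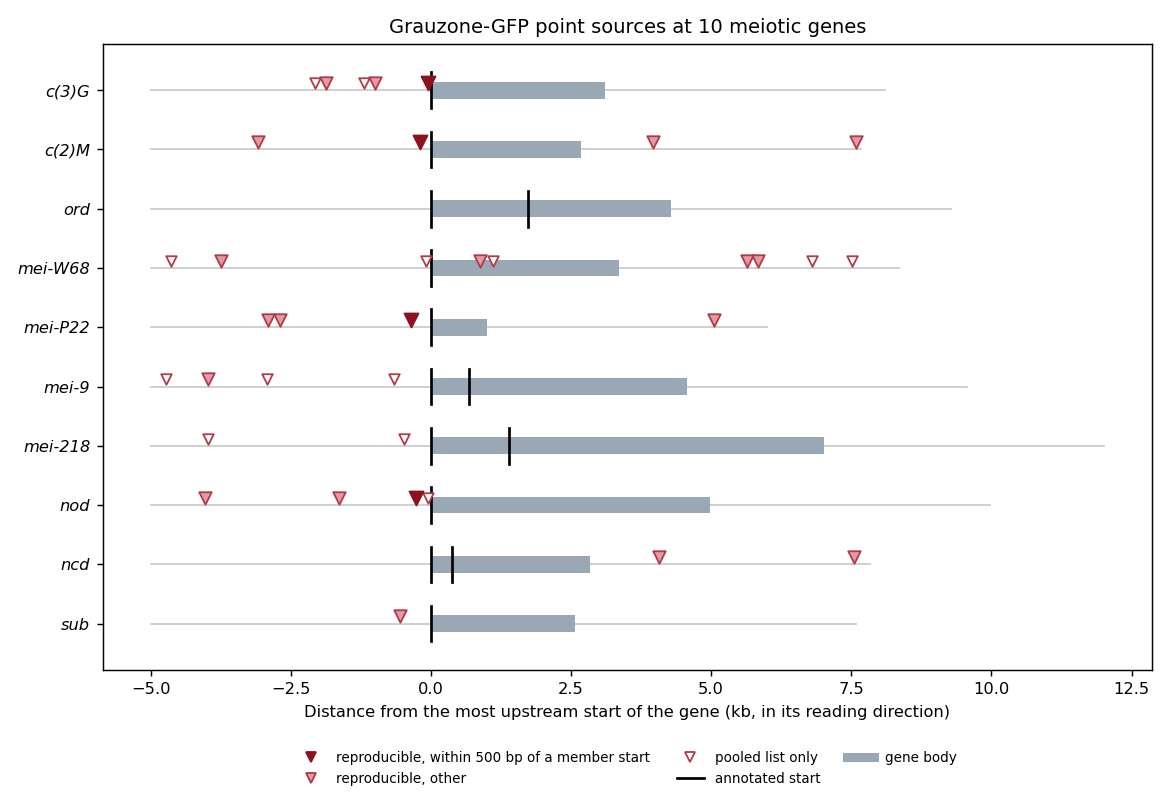
Point sources around the 10 genes, drawn in each gene's reading direction from its most upstream start (x axis, kb), 1 row per gene, with the body as a grey bar and a grey line out to 5 kb on either side. Dark triangles are the 4 reproducible point sources within 500 bp of a start, pale triangles the other reproducible ones and open triangles those in the pooled list only; ord has none of them.

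The members were also read by whether a neighbouring gene starts close by in the opposite direction. Of the members, 4 had an oppositely read gene starting within 500 bp, namely c(3)G, c(2)M, mei-P22 and ncd, and 3 of these 4 had a reproducible point source at the start, against 54.8% of all protein-coding genes arranged this way. Of the other 6 members only nod had one, against 22% of all genes without such a neighbour. At c(2)M and mei-P22 the neighbour's start was the closer. The point source between GMF and c(2)M lay 124 bp from the start of GMF, an actin-regulating protein gene, and 186 bp from that of c(2)M. The point source at mei-P22 lay 97 bp from the start of mRpL50, a mitochondrial ribosomal protein gene, and 358 bp from that of mei-P22. A point source placed between opposed starts belongs to neither gene by position, and no measurement here assigns it to either.

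The synaptonemal complex genes c(3)G and c(2)M each had a point source at the start, and ord, a cohesion gene, had none nearby. c(3)G encodes the transverse filament that zips homologs together (FBgn0000246, 3R, 15789473 to 15792579, minus strand). Its signal was 2.39 times the list's median in replicate 1, 2.16 times in replicate 2 and 2.62 times in replicate 3, which averaged 2.39 ± 0.229 (SD, n = 3). Every replicate had it within 76 bp of the start, at ranks 6894, 7553 and 7457, the smallest relative spread of the 4. The start of Acyp2, an acylphosphatase gene, lies 109 bp away on the other strand, and in replicate 3 it was the closer start, at 33 bp. The c(3)G window held 2 more reproducible point sources, both at nsl1, a gene for a subunit of a histone acetyltransferase complex. One lay 210 bp upstream of the nsl1 start at rank 5384 and the other in an nsl1 intron, 673 bp from that start, at rank 8127. For the first of these, replicate 2 had no point source within 100 bp but had one on either side, at ranks 5093 and 7006.

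c(2)M encodes a lateral element protein that anchors the complex to the chromosome axis (FBgn0028525, 2L, 16303264 to 16305940, plus strand). Its point source had 2.76, 2.42 and 4.22 times the list's median in replicates 1, 2 and 3, a mean of 3.13 ± 0.957 (SD, n = 3). Replicate 3 was the highest, and the positions were 266, 244 and 196 bp upstream. In replicates 1 and 2 a weaker second point source stood closer to the c(2)M start, at 62 bp and 44 bp and at ranks 10886 and 27618. The strongest point source in any of the windows lay 3089 bp upstream of c(2)M, in an intron of CG17328. It was 39 bp upstream of an alternative start of that gene and also within 500 bp of a start of heix. Its rank was 114 in the reproducible list, 149 in replicate 2 and 113 in replicate 3, and it stood higher still in the list of replicate 1, at a mean of 47.4 ± 9.64 times the list's median (SD, n = 3). Downstream of c(2)M, rank 2539 was reached in the 5′ UTR of CG5861, also within 500 bp of a start of Syx5. A point source 100 bp upstream of fzy, whose product activates the anaphase-promoting complex, lay just inside the window at rank 6515. It is also within 500 bp of a start of cni and cannot be assigned to either gene by position.

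The ord gene encodes a cohesion protein needed to hold sister chromatids together in meiosis (FBgn0003009, 2R, 23271257 to 23275536, minus strand, with 2 annotated starts). It was 1 of 2 members with no reproducible point source in its window, mei-218 being the other, where 63.7% of all protein-coding genes had at least 1. In the pooled list and in each replicate list, 9 of 10 member windows held a point source, beside 73.6% of all genes in the pooled list and 75.1%, 76.9% and 80.9% in replicates 1, 2 and 3. It was the only member whose window was also empty in the pooled list and in replicates 1 and 2, the nearest reproducible point source being 14977 bp from a start. Replicate 3 alone had 2 point sources upstream of it. They lay 2135 bp and 3397 bp from the start, at ranks 25865 and 9357.

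The genes that make the DNA breaks, mei-W68 and mei-P22, both had a point source at the start in all 3 replicates, and only that of mei-P22 was in the reproducible list. mei-W68 encodes the fly counterpart of Spo11, the enzyme that cuts the DNA (FBgn0002716, 2R, 19456170 to 19459523, plus strand). Its point source lay 81 bp upstream of the start in the pooled list and 46, 51 and 88 bp upstream in replicates 1, 2 and 3. The level was 1.47, 1.40 and 1.11 times the list's median, a mean of 1.33 ± 0.192 (SD, n = 3), at ranks 11009, 11307 and 14002. This start is shared with a transcript of par-1, a polarity kinase gene that reads on through the locus, so the point source is as near to the one as to the other. The reproducible point source nearest to it lay 882 bp downstream of the start, in an intron of both genes, and was the only one of the 22 inside a member's body. That one was the weakest of the 22, at rank 9421, and stood at ranks 6118 and 8891 in replicates 1 and 2 with no match in replicate 3. The mei-W68 window held more pooled point sources than any other member's, 9, including those at the starts of CG7744 (rank 3966) and betaTub56D, a beta-tubulin gene (rank 10057).

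mei-P22 is the partner of mei-W68 in making breaks (FBgn0016036, 3L, 7244388 to 7245383, plus strand), and it is the shortest of the 10 genes at 996 bp. The level at its start was 2.07, 2.49 and 4.14 times the list's median in replicates 1, 2 and 3, a mean of 2.90 ± 1.10 (SD, n = 3). Replicate 3 was the highest, with rank 4989 against 7965 in replicate 1 and 6508 in replicate 2. Its window is crowded with genes of other kinds. An interval from 7241175 to 7241865 carried 2 point sources, 138 bp upstream of RpL18, a ribosomal protein gene (rank 3959), and 63 bp inside Neos (rank 4895). A further one lay 95 bp upstream of Cdc27, a subunit gene of the anaphase-promoting complex, at rank 3697 and at ranks 3879, 3846 and 3580 in the replicates, a narrow range.

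The crossover genes mei-9 and mei-218 had no reproducible point source at a start. mei-9 encodes the fly XPF nuclease, which cuts recombination intermediates and also acts in DNA repair (FBgn0002707, X, 4314230 to 4318801, minus strand, 2 annotated starts). Replicate 3 alone listed a point source at a start of it, 58 bp upstream of the inner one, near the bottom of its list at rank 27889 and 0.39 times the median. The only reproducible one in the window was at norpA, the phospholipase C gene of the photoreceptor, 3976 bp from mei-9 and at rank 7203. mei-218 encodes a protein of the MCM family that promotes crossovers, and it shares its upstream start with mei-217 (FBgn0002709, X, 17135985 to 17142990, minus strand). The pooled list placed a point source 475 bp upstream at rank 11077. Its only match within 100 bp was in replicate 3, 504 bp from the start, just beyond the limit, and at rank 12262. Replicate 1 had a point source of its own 351 bp upstream, at rank 6628, too far from the pooled one to be counted as the same site. In replicate 2 the nearest was 4081 bp away. The mei-218 value at a start therefore rests on replicate 1 alone among the replicates.

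Of the motor genes, nod had the highest level of any member, and ncd and sub had no reproducible point source within 500 bp. nod encodes a chromosome-bound kinesin that keeps homologs without crossovers on the spindle (FBgn0002948, X, 11580772 to 11585750, plus strand). The level upstream of its start was 3.91, 2.99 and 6.26 times the list's median in replicates 1, 2 and 3, a mean of 4.39 ± 1.69 (SD, n = 3). The positions were 241, 262 and 270 bp upstream, within 29 bp of each other. The gene next to it, lncRNA:roX2, encodes an RNA of the dosage compensation complex. Its own point source, 62 bp from its start, ranked 9131 in the reproducible list and spread widely, from 5568 in replicate 1 to 11205 in replicate 2 and 21830 in replicate 3. A stronger one, at rank 2168, lay 4028 bp upstream of nod between e(y)2 and CG11695.

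ncd encodes a minus-end-directed kinesin that shapes the oocyte spindle (FBgn0002924, 3R, 29804290 to 29807127, minus strand, 2 annotated starts). No list had a point source closer than 3688 bp to a start of it, although the start of ca lies 64 bp from 1 of its starts on the other strand. The nearest in every list was the point source between Etfb and CG7789, downstream of ncd, at rank 2264 in the reproducible list and 2883, 2166 and 2036 in the replicates. sub encodes a kinesin of the spindle midzone (FBgn0003545, 2R, 17745500 to 17748078, minus strand). Its reproducible point source lay 556 bp upstream, outside the 500 bp limit, and 301 bp from the start of CG10931 on the other strand. It ranked 6775 in the reproducible list, 9122 in replicate 1 and 3940 in replicate 2. Replicate 3 had no point source anywhere in the sub window, the nearest being 8302 bp from the start. By position, replicate 1 placed it at 495 bp and replicate 2 at 558 bp, so the limit runs through the spread of this 1 site.

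**Figure D2:**
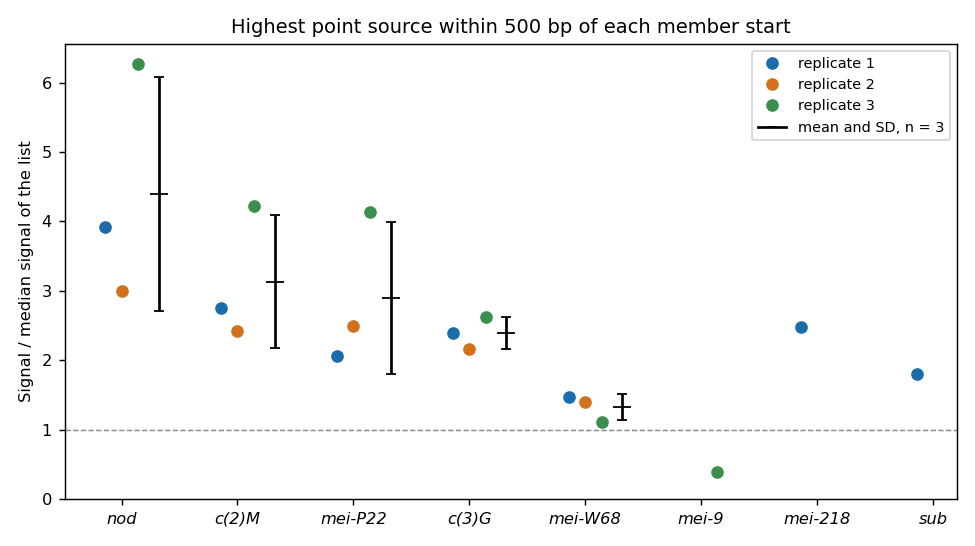
Signal of the highest point source within 500 bp of a start, divided by the median signal of its list (y axis), for the 8 members that had 1 in any replicate. Points are replicates and bars the mean and SD where all 3 had 1; nod was highest and mei-W68 lowest of those 5 in every replicate, and the dashed line marks the list median.

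Among the 5 genes with a value in every replicate, the order of the mean levels was nod, c(2)M, mei-P22, c(3)G and mei-W68. The ranges of nod, 2.99 to 6.26, and c(2)M, 2.42 to 4.22, overlapped, as did those of c(2)M and mei-P22, and of mei-P22 and c(3)G. That of c(3)G lay below the range of nod. The range of mei-W68, 1.11 to 1.47, lay below all the others. Replicate 3 was the highest for nod, c(2)M, mei-P22 and c(3)G. The same replicate was the highest for 58.6% of the 5512 protein-coding genes with a value in all 3, and its part in the spread of these members was not tested. The median over those 5512 genes was 3.32, with quartiles of 1.83 and 7.23, so nod lay above it and mei-W68 below the lower quartile. Over the 5 genes, between 39.9% for nod and 85.3% for mei-W68 of those genes had a higher mean.

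For each of these 5 genes, the protein-coding gene with the most similar ranks over the 3 replicates was looked up. By the summed absolute log2 difference in rank, the closest to c(3)G was CG42375 (0.033) and the closest to mei-W68 was luna (0.038), a zinc finger gene. RhoGAP18B was closest to c(2)M (0.091), EcR, the ecdysone receptor gene, to mei-P22 (0.103), and CG45088 to nod (0.226). The search ran over nearly all of the 5512 genes above, and the likeness is one of rank alone.

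Most of the 22 reproducible point sources in these windows lay at starts of neighbouring genes. Only 4 were within 500 bp of a member's start, 15 were within 500 bp of another gene's start alone, and 3 were at no start. Together 86.4% were at a start of some gene, beside 45.7% of the 8937 reproducible point sources in the windows of all protein-coding genes. The windows overlap many genes each and are not independent draws, so the 2 shares are given as a description. By place, 14 lay upstream of the member, 7 downstream and 1 in its body. The same split for all protein-coding genes is not given here, so it is not shown to be particular to these genes. The members' windows held a median of 2.5 reproducible point sources, from 0 to 4, against 1 for all protein-coding genes, and the members were longer, with a median length of 3230.5 bp against 2164.5 bp. The part of length and of gene density in these counts was not tested.

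Matches to the 22 were counted in the replicate lists. In all 3 replicate lists, 18 had a point source within 100 bp, and the other 4 had one in 2 lists. The 4 were the nsl1 site upstream of c(3)G, the intron site of mei-W68, the RpL18 site upstream of mei-P22 and the site upstream of sub. Replicate 3 was the missing list for all of them except the nsl1 site. The whole replicate lists were used, so the lncRNA:roX2 site counted through a rank of 21830 in replicate 3. Within the 9624 strongest of each replicate, 14 of the 22 were matched in all 3. The same share over all reproducible point sources is not given here, so these counts do not set the 22 apart. The reproducible list held the strongest pooled point sources, and the pooled list came from the same replicates, so a high match was built in. A place in it went with pooled rank, not with a match in each replicate. The site at the mei-W68 start, matched in all 3 replicates, lay outside it at pooled rank 10738.

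**Figure D3:**
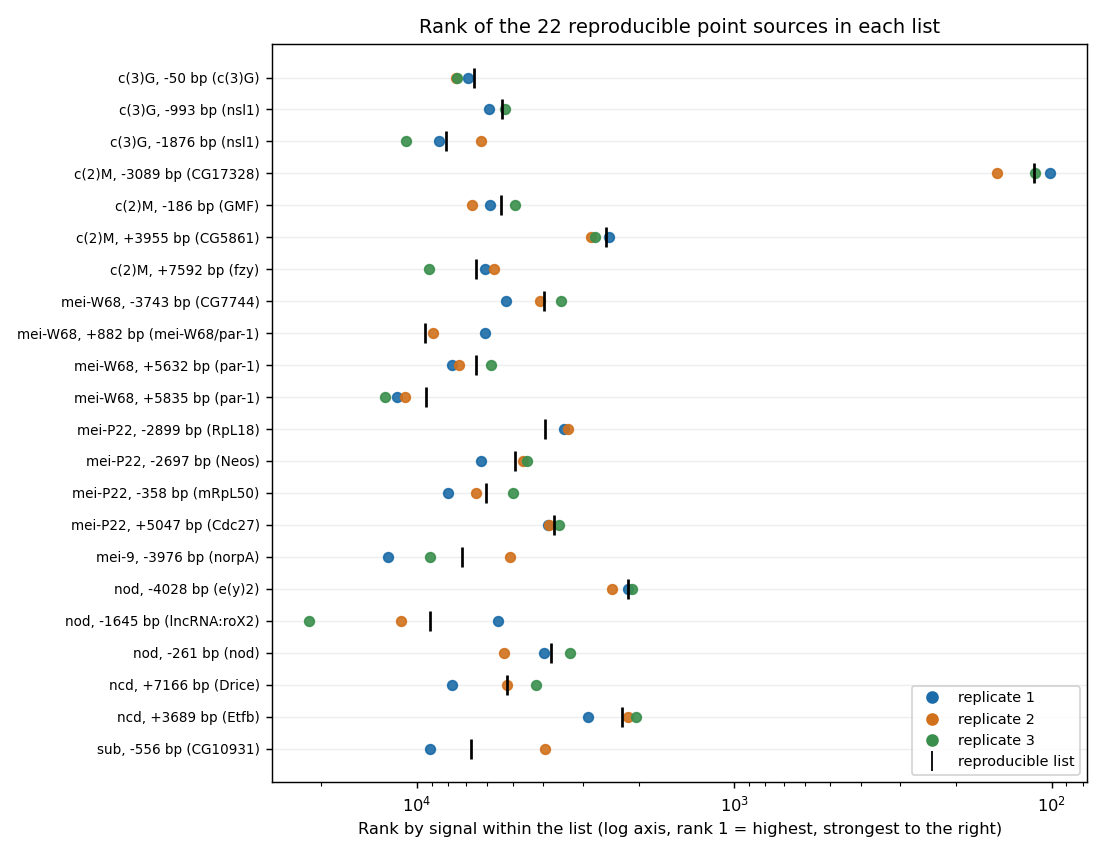
Rank by signal of the 22 reproducible point sources in each list (x axis, log scale, strongest to the right), 1 row per site with its distance from the member's start and, in brackets, the gene with the nearest start. Coloured points are the replicates and black bars the reproducible list; the CG17328 site near c(2)M stands apart, at rank 149 or higher in every list, and the lncRNA:roX2 site near nod spreads the most, from 5568 to 21830.

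The DNA at the 4 member starts ranged widely in base composition, and 3 of the 4 windows held none of the 7 letter strings searched. In windows reaching 50 bp to either side of the point source, adenine and thymine made up 57.4% at c(3)G, 58.4% upstream of nod, 69.3% at mei-P22 and 79.2% at c(2)M. The median of all 9624 reproducible windows was 68.3%, and their low and high deciles were 52.5% and 78.2%, against 57.8% over the 6 chromosome arms. c(3)G and nod thus lay in the lower part of that range and c(2)M above its upper bound. The window printed for mei-P22 above holds TATAAA, on both strands in an overlapping match. That motif was in 6 of the 22 windows, or 27.3%, and in 23.9% of all reproducible windows. CGATA, the core recognised by the insulator protein BEAF-32, was in 3 of 22 against 15.4%, among them the nsl1 site near c(3)G with 2 copies, and GAGAG was in 2 of 22 against 8.27%. The DRE core TATCGATA, which contains CGATA, was in 0 of the 22 windows, against 1.68% of all. The same held for GGTCACAC, CACGTG and CAGGTAG, found in 1.18%, 0.675% and 0.488% of all windows. Motifs were read on both strands, and a match is a stretch of letters, not evidence of binding.

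Other genes of the meiotic pathway had reproducible point sources at their starts in 24 of 48 cases, beside the 32.0% of all protein-coding genes. The list was chosen with earlier results of these data known, and several of its genes act in all dividing cells. By role, there were 7 of 13 genes of repair and crossover, 4 of 9 of the synaptonemal complex and cohesion, 2 of 5 of break formation, 6 of 14 of the spindle, 0 of 2 of male segregation and 5 of 5 checkpoint genes. The strongest was at trem, a zinc finger gene of the family of grau that is needed for break formation, at rank 138 and a signal of 5538.3. It was followed by spn-B and spn-A, which encode the strand-exchange proteins of the RecA family, at ranks 224 and 274. The spindle gene tacc ranked 308, and mus312, whose product works with the mei-9 nuclease, ranked 548. All of these stood higher than any of the 10 members. Of these 5 sites, 3 also lie within 500 bp of a start of another gene and cannot be assigned to either by position. That of trem is also at idc, that of spn-A at Rpp14b, and that of mus312 at CG42307 and mrva, while those of spn-B and tacc have no other start within that distance. In the replicates, trem ranked 189, 278 and 58, spn-B 162, 232 and 379, and spn-A 233, 319 and 330.

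Among the checkpoint genes, mei-41, the fly ATR kinase, ranked 927, with ranks of 1111 and 613 in replicates 2 and 3 and no point source within 500 bp in replicate 1. Its site is also at TH1. The kinase genes grp and tefu ranked 1624 and 1895. At tefu, whose point source also lies at Hsc70-4, a chaperone gene, the replicates differed widely, at 6441, 2593 and 1189. Of the partners of the nuclease, Ercc1 ranked 1662, at a start it shares within 500 bp with SMC2, a condensin gene. aurB, mei-S332, a protector of centromeric cohesion, and corolla, a component of the synaptonemal complex, ranked 2496, 2542 and 2961, at sites that are also at Stam, Vrp1 and ND-24. The synaptonemal complex gene cona, named after its values were seen, had no point source at a start in the reproducible list and only replicate 2 listed one, at rank 13545.

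**Figure D4:**
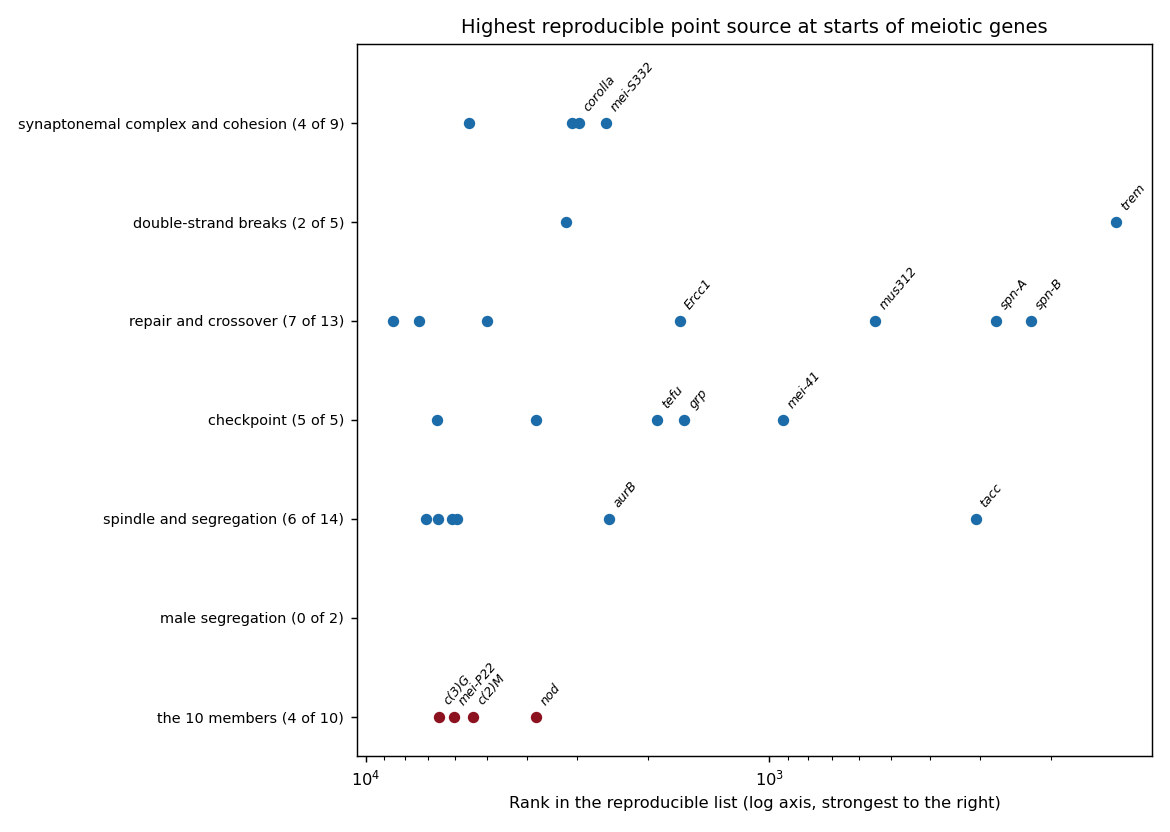
Rank in the reproducible list (x axis, log scale, strongest to the right) of the highest point source within 500 bp of a start, for 24 pathway genes by role (blue) and the 4 members that had 1 (red), with counts in brackets. The 12 strongest pathway genes are named; the members lie between ranks 3780 and 6602, and trem, spn-B, spn-A, tacc and mus312 rank higher than any of them, at 138 to 548.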

How the data were processed

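Data were peak lists on dm6 in narrowPeak format, 1 for each of the 3 replicates, 1 pooled and 1 reproducible, per the file headers and accompanying descriptions. The authors deposited a signal value and a −log10 q-value per peak. The scale of the signal, the aligner, the peak caller, the threshold for reproducibility and the read depth are not given in the sources used here, so no counting interval can be stated. The reproducible list held the 9624 strongest pooled point sources. Its q-values were all equal, so the signal ranked peaks within a list. Levels are the signal divided by the list's median.

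Genes and starts came from Ensembl release 115, without transposable elements and pseudogenes, and sequences from the RefSeq copy of the same assembly. A start held a point source within 500 bp, and replicates matched within 100 bp. Each point source got the first feature that applied, promoters (within 500 bp of a start) before UTRs and coding exons, and introns last of those inside genes. Replicates were biological, per the labels. The members and lists were chosen with earlier results of these data known. Named were all members, genes with the nearest start, the 12 strongest pathway genes and the genes most alike in rank. In the pathway list, SA and mnm matched no single symbol and were left out, and snm was matched as SA2 by synonym. Lookups were tested on simulated data. Python 3.11.15, numpy 2.4.6, pandas 2.3.3 and matplotlib 3.10.9 were used.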

Additional observations from a re-analysis of the deposited data

How the results depend on the processing

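Values here are set against the counts at 500 bp in the reproducible list. The count of members with a point source at a start fell from 4 to 2 at 250 bp, which left c(3)G and c(2)M, and to 1 in the stronger part of 2 equal parts of the list, which left nod. It rose to 6 at 1000 bp, with mei-W68 and sub added, and to 6 in the pooled list, was 5 for point sources matched in all 3 lists, with mei-W68 added, and stayed at 4 with the most upstream start only. Lists made here from 2 replicates, without each in turn, gave 4 to 5 members, sub being added without replicate 3. These lists, and the one matched in all 3, kept point sources matched within 100 bp, ranked by mean level. Each was cut at 9624, so its length was fixed in advance, and none repeats the submitters' threshold for reproducibility. Members with a start held in every replicate went from 5 to 3 at 250 bp. The share of all genes held in every replicate at 250 bp is not given, and a shorter limit can only lower it. The shares that follow belong to the count that fell from 4 to 2. The share of all genes was 26.2% at 250 bp, 36.4% at 1000 bp, 19.1% in the stronger part, 47.8% in the pooled list, 30.0% in point sources matched in all 3 lists and 29.5% with the most upstream start only, against 32.0%, and 30.7% to 33.3% without each replicate. The 24 pathway genes became 15 in the stronger part and 23 to 26 without each replicate. The 22 point sources in the windows became 11 at 2 kb, 30 at 10 kb, 8 in the stronger part, 35 in the pooled list and 15 to 21 without each replicate. The 8 windows with any became 7 at 2 kb, 9 at 10 kb, 5 in the stronger part, 9 in the pooled list and 7 to 8 without each replicate. Except for the pooled list, no share of all genes is given for these other settings. Matches in all 3 lists went from 18 to 11 at 50 bp and to 14 within the 9624 strongest of each replicate. Shorter limits, shortened replicate lists and the stronger part of the list allow fewer positions by construction. Longer limits and the pooled list allow more. The cause of the other moves was not tested. Of 45 alternative ranks for the highest point source of each window, 32 lay within 1 SD over replicates. The SD came from replicate ranks that were themselves among these alternatives. The highest point source also need not be the same site in each list. For mei-P22 it was at Cdc27 in the reproducible list, and between RpL18 and Neos in replicates 1 and 2. The count therefore does not measure how stable the ranks are. No paired analysis was possible because there is 1 group. The depth behind each list was not used here, so a missing point source is not shown to be absent.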

Other observations

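The replicate lists hold places that the pooled list lacks. Of 115 replicate point sources in the 10 windows, 16 lay more than 500 bp from any pooled one, and 2 of these 16 ranked within the first 9624 of their list. They were the one upstream of ord in replicate 3, at rank 9357, and the one in an intron of CG5004, beyond the end of mei-218, in replicate 1, at rank 8487. No share over all replicate point sources is given here, so 16 of 115 is not shown to be unusual. Upstream of sub, replicates 1 and 2 both had a point source at the start of CG5002, 86 bp and 63 bp upstream of it and at ranks 12378 and 10393, and neither replicate 3 nor the pooled list had one there.

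The crossover gene hdm, named here after its values were seen, ranked 2291, 2390 and 2778 in replicates 1, 2 and 3 at its start and had no point source there in the pooled or the reproducible list. Of the 13968 genes, 34, or 0.243%, had a point source at a start within the 9624 strongest of every replicate and none in the pooled list. No member was among them. A gene without a reproducible point source can therefore be well ranked in each replicate, and how the pooled list came to lack these places was not tested.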
